A study of Mus musculus with 15 samples.

Results

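The 10 genes described here are Phgdh, Psat1, Psph, Shmt1, Shmt2, Mthfd2, Asns, Atf4, Chac1 and Trib3, the mouse genes of serine synthesis, one-carbon transfer and the ATF4 stress response. They were taken from the raw count table by name, each Ensembl gene mapping to 1 symbol, and are 10 of the 53465 genes listed there. All 10 passed the filter on low counts, as did 13938 genes in all. The RNAseq was done on BMDMs, macrophages obtained by culturing bone marrow in the growth factor M-CSF. The marrow was kept for 7 days in DMEM with 10% FBS and 20 ng/ml M-CSF. The study's culture methods give the age of the marrow donor mice as 8 to 12 weeks. BMDMs were left untreated (control) or received IL-4, IL-4 with IL-6, IL-13, or IL-13 with IL-6 for 24 h, with 3 libraries in each of the 5 groups. In the study's BMDM treatments the doses were 10 ng/ml for IL-4, 40 ng/ml for IL-13 and 40 ng/ml for IL-6. No library received IL-6 alone, so each effect of IL-6 described here is an effect of its co-addition with IL-4 or IL-13. The study describes the libraries of a group as biological replicates. Whether these were separate animals or separate cultures is stated neither there nor in the labels, and the p-values measure only the spread between these libraries.

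As background, cells make serine from the glycolytic intermediate 3-phosphoglycerate in the order Phgdh, Psat1, Psph, and the Shmt enzymes then split serine into glycine and a one-carbon unit carried on folate. Shmt1 works in the cytosol and Shmt2 in mitochondria, where Mthfd2 oxidises the folate-bound unit, which is later used for purines and thymidylate. ATF4 is a transcription factor whose mRNA is translated better when the initiation factor eIF2 is phosphorylated, for example under amino acid shortage, and it switches on genes of amino acid synthesis, transport and tRNA charging. Asns, Chac1, Trib3 and the serine pathway genes are widely used as its targets. The level of Atf4 mRNA is therefore only part of what sets ATF4 activity, and protein was not measured in these libraries.

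The 3 genes below are the ones whose RefSeq promoter window (GRCm38.p6, 250 bases before to 50 after the transcript start) held the CEBP-ATF core TGATGNAA on either strand, a short form of the element through which ATF4 and C/EBP partners bind. Capitals mark the match, each run is 30 bases long and reads 5′ to 3′ on the strand of the gene, and a match read from the opposite strand appears as its reverse complement.
Asns, chr6:7693214-7693243, minus strand: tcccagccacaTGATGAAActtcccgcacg
Chac1, chr2:119351038-119351067, plus strand: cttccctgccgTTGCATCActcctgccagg
Trib3, chr2:152344028-152344057, minus strand: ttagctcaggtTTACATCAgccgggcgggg
The Asns match lies on the gene's own strand, 23 to 16 bases before the RefSeq start and inside the gene span of GENCODE M21, which starts further upstream. That of Chac1 is on the opposite strand, 193 to 186 bases before the start. In Trib3 the match is on the opposite strand as well, 14 to 21 bases after the RefSeq start. It lies upstream of the gene span of GENCODE M21, which starts further downstream. All 10 genes were found in the promoter table with 11 windows between them, Psat1 having 2 starts. The core was thus in the windows of 3 of the 10 genes, against 4.51% of the 27025 genes of the table, and in 3.97% of its 32851 windows. The other 7 genes do not have these letters in this window. A match describes the letters only and is neither a mapped site nor a cause.

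A pair of libraries stood apart from their groups, IL-4/IL-6 replicate 2 (chi-square per gene of 23.8 and 42.2 against the others of its group) and IL-13 replicate 1 (20.6 and 15.9), where all other pairs of replicates gave 2.60 to 7.38. IL-4/IL-6 replicate 2 was the highest of its group for 8 of the 10 genes, Chac1 and Shmt1 being the exceptions, and IL-13 replicate 1 was likewise the highest of its group for 8 of the 10. The part of these libraries in the IL-6 comparisons is given with those results.

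All 10 genes were higher in IL-4-treated than in control BMDMs, and all 10 were higher with IL-13. The increases with IL-4 ran from 1.68-fold for Shmt1 to 12.7-fold for Chac1, and those with IL-13 from 1.63-fold to 8.69-fold for the same pair. Calls were made at an adjusted p under 0.05, and IL-4 raised 32.1% of the 13938 genes tested and lowered 35.9%. With IL-13, 29% of the genes tested were called higher and 31.1% lower. The median log2 fold change of the 10 genes was 2.17 with IL-4 and 1.64 with IL-13, beside medians of -0.05 and -0.02 over all genes tested. Of the genes tested, 0.646% had a larger log2 fold change with IL-4 than Chac1, 1.26% than Asns, 2.4% than Phgdh and 15.9% than Shmt1. In IL-4/IL-6-treated cells all 10 genes stood above control as well (35.4% of all genes called higher, 37.5% lower). In the IL-13/IL-6 group 9 of the 10 did, the exception being Shmt1 (31.9% of all genes called higher, 32.1% lower). The comparisons with control share the 3 control libraries and are given side by side only. Requiring a log2 fold change of at least 1 in addition kept 8 of the 10 genes with IL-4 and with IL-13, where 10% and 7.74% of all genes passed upward.

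The control libraries differed from the cytokine-treated ones in more than these genes. All 8 macrophage markers were detected in every group, with summed levels of 18930 to 21110 CPM in control, 14310 to 14780 CPM with IL-4, 10900 to 12700 CPM with IL-4/IL-6, 17050 to 19800 CPM with IL-13 and 13930 to 14820 CPM with IL-13/IL-6. Most of each sum was Lyz2, with means of 14924, 9698, 6852, 12745 and 8692 CPM in the same order, so the sums mainly follow that gene. With IL-4, 5 of the 8 were lower (35.9% of all genes), Mertk (17.2-fold) and Cd14 (2.88-fold) most, and 1 was higher (32.1% of all genes). Beside IL-4, IL-6 raised 3 and lowered 5 of the 8 (20.7% and 18.7% of all genes). Beside IL-13, IL-6 raised 3 and lowered 2 (12.1% and 13.5% of all genes). Fcgr1 was higher (1.10 and 1.34 on the log2 scale) and Lyz2 lower (-0.50 and -0.55) in both. The summed level of 8 granulocyte and precursor markers, S100a8 and Mpo among them, was 464.6 to 549.9 CPM in the control libraries and 1.15 to 3.00 CPM in the 12 cytokine-treated libraries, and all 8 markers were called lower in each of the 4 groups against control. Of all genes tested, 35.9% were called lower with IL-4, 37.5% with IL-4/IL-6, 31.1% with IL-13 and 32.1% with IL-13/IL-6. B cell markers summed to 10.8 to 12.4 CPM in control libraries and to at most 1.66 CPM elsewhere, and stromal markers to 16.8 to 21.5 CPM against at most 0.482 CPM, with Col1a1 at 0 in all 12 cytokine-treated libraries. Of the 5 megakaryocyte markers, Ppbp, Itga2b, Gp9 and Gp1bb were lower than control in each of the 4 cytokine groups, Itga2b going from 114 CPM to group means of 1.47 to 1.72 CPM. The fifth, Pf4, had mean levels of 97.4 CPM in control, 68.7 with IL-4, 234.8 with IL-4/IL-6, 75.5 with IL-13 and 390.1 with IL-13/IL-6. Pf4 and Ppbp were called higher with IL-6 in both settings, Ppbp from 1.59 to 2.80 CPM beside IL-4 and from 1.87 to 4.16 CPM beside IL-13. T cell markers stayed at or under 1.23 CPM in every library. The 10 cell division genes summed to 1000 to 1190 CPM in control, 522.7 to 572 CPM with IL-4 and 633.4 to 723 CPM with IL-13, and with IL-6 to 182.2 to 207.7 CPM beside IL-4 and 231.3 to 268.2 CPM beside IL-13. These levels move with the comparisons over control and, for macrophage markers, cell division genes, Pf4 and Ppbp, with IL-6 co-addition, and their part in the results was not tested. In bulk RNA, fewer cells of a type and less RNA per cell cannot be told apart. Total counts were 17001352 to 18918686 per library, and the biological coefficient of variation was 4.48% among control libraries, 4.54% with IL-4, 14.8% with IL-4/IL-6, 10.9% with IL-13 and 7.38% with IL-13/IL-6.

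**Figure D1:**
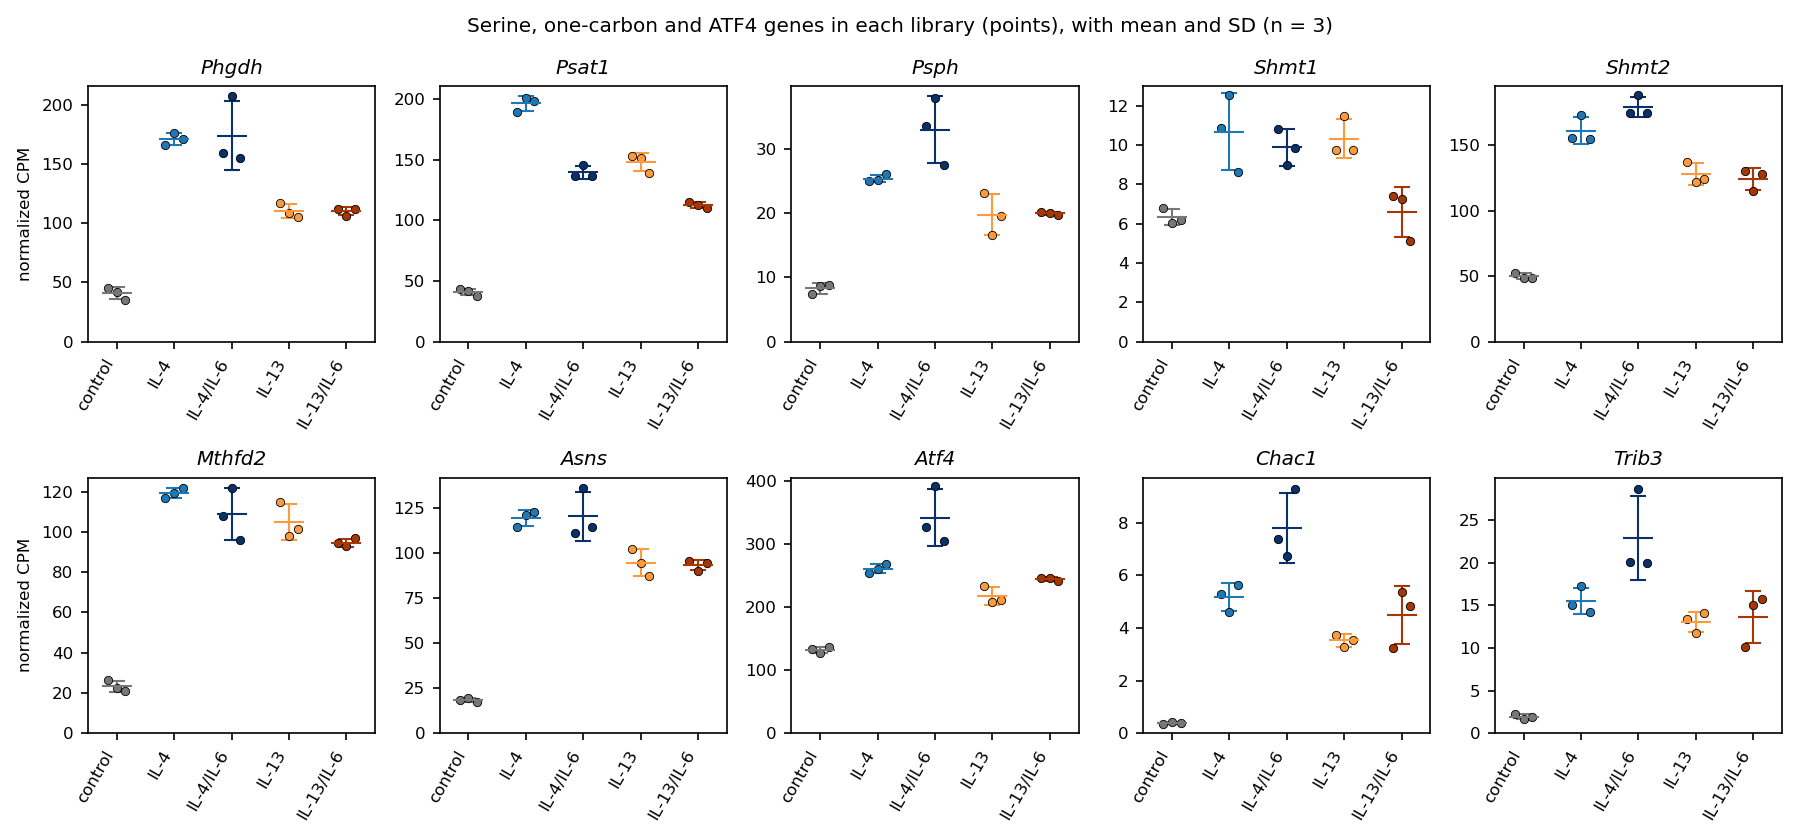
Levels of the 10 genes in each library, in TMM-normalised CPM (linear axes from 0), with 1 panel per gene, 3 points per group, and the mean and SD of each group. In every panel except that of Shmt1 the 3 control libraries lie below all 12 cytokine-treated ones, and Psat1 is the panel in which every library of both groups with IL-6 lies below all libraries of the counterpart without it. The share of all genes whose libraries separate in these ways is not given here.

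Phgdh, which catalyses the first and committed step of serine synthesis, lies at chr3:98313170-98339990 on the minus strand (GRCm38, 13 merged exons). Its control libraries held 45.5, 41.6 and 35.5 normalised CPM (counts scaled to the TMM library size, the scale of all CPM values here). With IL-4 they held 166, 176 and 171 CPM, and with IL-13 117, 108 and 105 CPM. The 3 groups were apart from each other, with IL-4 at the top. IL-4 raised Phgdh 4.19-fold (log2 fold change 2.07, SE 0.106, adjusted p = 2.53e-11). IL-13 raised it 2.69-fold (1.43, SE 0.105, adjusted p = 3.58e-09). With IL-6 co-addition the IL-4/IL-6 libraries held 159.6, 207 and 155 CPM and the IL-13/IL-6 libraries 112, 106 and 112 CPM. In both cases the libraries with IL-6 overlapped those without it. The log2 fold change for IL-6 was 0.02 beside IL-4 (95% confidence interval -0.19 to 0.23, adjusted p = 0.882) and 0.00 beside IL-13 (-0.21 to 0.21, adjusted p = 1). A pseudogene copy, Phgdh-ps1, had no count in any library.

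Psat1, the transaminase of the second step, lies at chr19:15904678-15947337 on the minus strand (12 merged exons). It stood at 43.2, 41.7 and 37.9 CPM in control BMDMs, and at 189.9, 201 and 199 CPM with IL-4. With IL-4/IL-6 it stood at 136, 146 and 137 CPM, below every IL-4 library. In the IL-13 libraries Psat1 was at 153, 151 and 139.5 CPM and in the IL-13/IL-6 libraries at 116, 113 and 111 CPM, again with no overlap. IL-4 raised it 4.80-fold (log2 fold change 2.26, SE 0.0671, adjusted p = 3.34e-14) and IL-13 3.62-fold (1.85, SE 0.0665, adjusted p = 6.02e-13). Co-addition of IL-6 lowered Psat1 by a factor of 1.41 beside IL-4 (log2 fold change -0.49, SE 0.063, adjusted p = 5.79e-06). Beside IL-13 it lowered Psat1 by a factor of 1.31 (-0.39, SE 0.0634, adjusted p = 0.000141). Psat1 was the only one of the 10 genes called with IL-6 in both settings. Even so, it remained 3.41-fold above control with IL-4/IL-6 (adjusted p = 2.47e-13) and 2.76-fold above control with IL-13/IL-6 (adjusted p = 5.05e-12). Its calls held in all 22 alternative fits, where the IL-6 effect beside IL-4 ran from -0.58 to -0.49 on the log2 scale and that beside IL-13 from -0.44 to -0.34.

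Psph, the phosphatase that releases serine in the last step, lies at chr5:129765558-129787449 on the minus strand (9 merged exons). The control libraries held 7.35, 8.64 and 8.81 CPM of Psph. IL-4 libraries held 24.9, 25.1 and 26.0 CPM, and IL-13 libraries 23.1, 16.6 and 19.6 CPM. Every cytokine-treated library was above every control library. IL-4 raised Psph 3.07-fold (log2 fold change 1.62, SE 0.132, adjusted p = 1.01e-08), and IL-13 raised it 2.39-fold (1.26, SE 0.133, adjusted p = 3.61e-07). With IL-4/IL-6 the libraries were at 33.5, 37.9 and 27.5 CPM, all above the IL-4 libraries (1.30-fold, log2 fold change 0.38, SE 0.119, adjusted p = 0.0178). That call was lost with upper-quartile scaling (0.29, adjusted p = 0.0693) and when IL-4 replicate 1 (0.35, adjusted p = 0.0686), IL-4 replicate 2 (0.34, adjusted p = 0.0708), IL-4/IL-6 replicate 1 (0.34, adjusted p = 0.0679) or IL-4/IL-6 replicate 2 (0.25, adjusted p = 0.103) was left out. In IL-13/IL-6 libraries Psph was at 20.2, 20.0 and 19.8 CPM, within the range of the IL-13 libraries (log2 fold change 0.02, -0.25 to 0.28, adjusted p = 0.955). Psph shares 452 exon bases with Cct6a on the opposite strand, a gene with 58562 counts in all against 5740 for Psph, and whether the counting used strand is not given in the sources used here, so its reads are less certain.

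Within the serine pathway the balance of transcripts shifted. In deposited FPKM, which scale a count by gene length, the ratio of Phgdh to Psat1 was 1.49 ± 0.0129 with IL-4 and 2.12 ± 0.266 with IL-4/IL-6 (SD, n = 3), with no overlap between the libraries (1.47 to 1.5 and 1.94 to 2.43). The same ratio was 1.27 ± 0.0428 with IL-13 and 1.67 ± 0.0562 with IL-13/IL-6, also without overlap, and 1.70 ± 0.100 in control. Psat1 over Psph stood at 7.90 ± 0.241 with IL-4 and at 4.37 ± 0.603 with IL-4/IL-6. These ratios describe the same counts as the tests above and were not tested again.

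**Figure D2:**
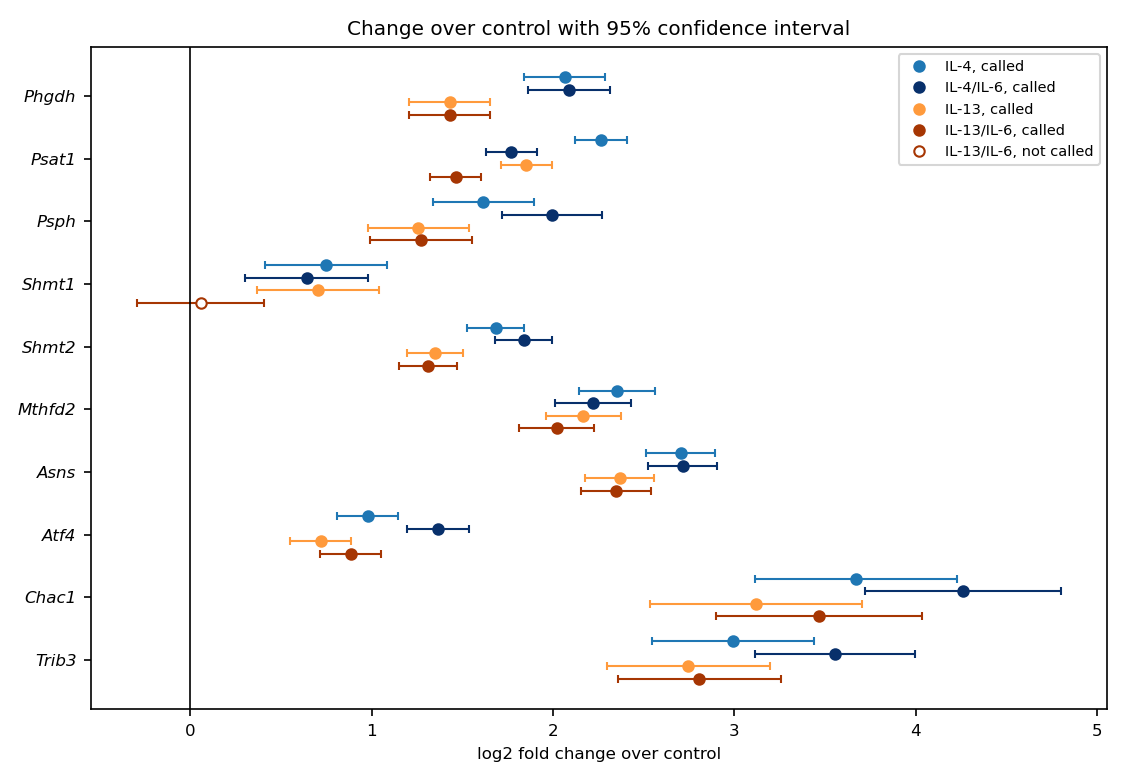
Log2 fold change over control of each gene in the 4 cytokine groups (points), with 95% confidence intervals, filled where called at an adjusted p under 0.05. All intervals lie above 0 except that of Shmt1 with IL-13/IL-6, which runs from -0.29 to 0.41.

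Shmt1, the cytosolic serine hydroxymethyltransferase, lies at chr11:60788104-60811718 on the minus strand (15 merged exons). It was the least changed of the 10 genes over control. In control it stood at 6.77, 6.04 and 6.17 CPM, with IL-4 at 10.9, 12.5 and 8.62 CPM, and with IL-13 at 9.75, 11.5 and 9.74 CPM. Both cytokines separated all their libraries from control. IL-4 raised Shmt1 1.68-fold (log2 fold change 0.75, SE 0.159, adjusted p = 0.000509), and IL-13 raised it 1.63-fold (0.70, SE 0.159, adjusted p = 0.00109). The IL-13/IL-6 libraries stood at 7.40, 7.27 and 5.12 CPM, below every IL-13 library and on both sides of the control libraries. IL-6 lowered Shmt1 by a factor of 1.56 beside IL-13 (log2 fold change -0.65, SE 0.159, adjusted p = 0.00558), and IL-13/IL-6 did not differ detectably from control (0.06, -0.29 to 0.41, adjusted p = 0.772). The IL-4/IL-6 libraries, at 10.8, 8.96 and 9.85 CPM, overlapped the IL-4 libraries (-0.11, -0.43 to 0.22, adjusted p = 0.616). The fall beside IL-13 was called in all 22 alternative fits (-0.74 to -0.50). Raw counts of Shmt1 were low, 92 to 226 per library, and it shares 184 exon bases with Smcr8 on the opposite strand, which had 32235 counts in all against 2379.

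Shmt2, its mitochondrial counterpart, lies at chr10:127517123-127522444 on the minus strand (10 merged exons). It held 52.8, 49.0 and 48.5 CPM in control, 155, 173 and 155 CPM with IL-4, and 137, 122 and 124 CPM with IL-13. The 3 groups were apart. IL-4 raised Shmt2 3.22-fold (log2 fold change 1.69, SE 0.0748, adjusted p = 4.09e-12), and IL-13 2.55-fold (1.35, SE 0.0744, adjusted p = 9.6e-11). With IL-4/IL-6 it stood at 175, 188 and 175 CPM, above each IL-4 library, but the difference did not pass the threshold (0.15, 0.00 to 0.30, adjusted p = 0.102). With IL-13/IL-6 it stood at 130.4, 115 and 128 CPM, overlapping IL-13 (-0.04, -0.19 to 0.11, adjusted p = 0.765). The FPKM ratio of Shmt2 to Shmt1 was 9.89 ± 0.208 in control, 19.2 ± 2.84 with IL-4, 22.8 ± 3.12 with IL-4/IL-6, 15.6 ± 2.19 with IL-13 and 24.3 ± 6.05 with IL-13/IL-6 (SD, n = 3). The lowest ratio in any cytokine-treated library, 13.3, was above the highest control value, 10.1.

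Mthfd2, the mitochondrial enzyme that oxidises methylene-tetrahydrofolate, lies at chr6:83305691-83325908 on the minus strand (10 merged exons). It went from 26.5, 22.6 and 20.9 CPM in control to 117, 119 and 122 CPM with IL-4. With IL-13 the libraries held 115, 98.1 and 101 CPM. IL-4 raised Mthfd2 5.11-fold (log2 fold change 2.35, SE 0.0986, adjusted p = 2.02e-12), and IL-13 4.5-fold (2.17, SE 0.0983, adjusted p = 8.54e-12), with no overlap with control in either case. IL-4/IL-6 libraries held 108, 122 and 96.1 CPM, spread around the IL-4 values (-0.13, -0.33 to 0.06, adjusted p = 0.264). IL-4/IL-6 replicate 2 decided that result, and without it Mthfd2 was called lower with IL-6 (-0.24, adjusted p = 0.0333), as it was by limma voom with sample weights (-0.15, adjusted p = 0.0229). IL-13/IL-6 libraries held 94.3, 92.8 and 96.8 CPM, all below the IL-13 libraries, though not past the threshold (-0.15, -0.34 to 0.04, adjusted p = 0.276).

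Asns makes asparagine from aspartate and glutamine and lies at chr6:7675169-7693254 on the minus strand (13 merged exons), with the promoter match printed above. It stood at 18.3, 19.7 and 17.1 CPM in control, 115, 122 and 123 CPM with IL-4, and 103, 94.8 and 87.3 CPM with IL-13. The 3 groups did not overlap. IL-4 raised Asns 6.52-fold (log2 fold change 2.70, SE 0.0907, adjusted p = 1.37e-13) and IL-13 5.16-fold (2.37, SE 0.0903, adjusted p = 1.19e-12). IL-6 left it at 111, 136 and 115 CPM beside IL-4 (0.01, -0.16 to 0.18, adjusted p = 0.936). Beside IL-13 it stood at 95.6, 90.3 and 94.6 CPM (-0.02, -0.19 to 0.15, adjusted p = 0.895). Both intervals exclude a change as large as that of Psat1 in the same comparison.

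Atf4 itself, a gene at chr15:80255184-80257541 on the plus strand, was the most abundant of the 10 and among the least induced. The control libraries held 133, 128 and 137 CPM, the IL-4 libraries 255, 260.3 and 269 CPM, and the IL-13 libraries 234, 208 and 212 CPM. All 3 groups were apart. IL-4 raised Atf4 1.97-fold (log2 fold change 0.98, SE 0.0796, adjusted p = 9.96e-09) and IL-13 1.65-fold (0.72, SE 0.0794, adjusted p = 6.24e-07). With IL-4/IL-6 the libraries reached 328, 393 and 305 CPM, above every IL-4 library, a further 1.31-fold increase (0.39, SE 0.0784, adjusted p = 0.000693). Leaving out any 1 library or changing the scaling or tool kept this call, with log2 fold changes from 0.26 to 0.44. With IL-13/IL-6 the libraries stood at 247, 246 and 242 CPM, above every IL-13 library, but the change did not pass the threshold (0.17, 0.00 to 0.33, adjusted p = 0.141). The call beside IL-13 was made by limma voom with sample weights (0.20, adjusted p = 0.00319) and without IL-4/IL-6 replicate 2, a library of another group in the shared fit (0.15, adjusted p = 0.0425).

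Chac1, which degrades glutathione, lies at chr2:119351229-119354381 on the plus strand (3 merged exons), and its promoter window also held the core. It was nearly silent in control BMDMs, with 7, 8 and 7 counts (0.365, 0.443 and 0.393 CPM). IL-4 libraries held 5.30, 4.59 and 5.62 CPM from 99, 83 and 103 counts, and IL-13 libraries 3.75, 3.27 and 3.55 CPM. IL-4 raised Chac1 12.7-fold (log2 fold change 3.67, 3.11 to 4.23, adjusted p = 2.01e-09), and IL-13 8.69-fold (3.12, 2.54 to 3.70, adjusted p = 4.06e-08), the widest intervals of the 10 genes since control held so few reads. With IL-4/IL-6 it stood at 7.37, 6.72 and 9.27 CPM, above each IL-4 library (1.5-fold, 0.59, SE 0.174, adjusted p = 0.012). This call was lost without IL-4 replicate 2 (0.49, adjusted p = 0.0757) or IL-4/IL-6 replicate 3 (0.43, adjusted p = 0.0781). With IL-13/IL-6 Chac1 stood at 3.24, 5.37 and 4.84 CPM, on both sides of the IL-13 libraries (0.35, -0.05 to 0.75, adjusted p = 0.206).

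Trib3, a pseudokinase that is induced by ATF4 and acts back on it, lies at chr2:152337422-152344032 on the minus strand (4 merged exons). It held 2.24, 1.66 and 1.91 CPM in control, 15.1, 17.2 and 14.2 CPM with IL-4, and 13.4, 11.7 and 14.1 CPM with IL-13. All treated libraries were above control. IL-4 raised it 7.96-fold (log2 fold change 2.99, SE 0.211, adjusted p = 1.55e-09) and IL-13 6.71-fold (2.75, SE 0.213, adjusted p = 7.38e-09). With IL-4/IL-6 it reached 20.1, 28.6 and 20.0 CPM, above each IL-4 library (1.48-fold, 0.56, SE 0.164, adjusted p = 0.011). Without IL-4 replicate 3 (0.48, adjusted p = 0.0606) or IL-4/IL-6 replicate 2 (0.36, adjusted p = 0.0741) the threshold was missed. With IL-13/IL-6 it stood at 10.1, 15 and 15.7 CPM, overlapping IL-13 (0.06, -0.30 to 0.42, adjusted p = 0.851).

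Added to IL-4, IL-6 thus raised 4 of the 10 genes (Atf4, Psph, Chac1 and Trib3), lowered Psat1 and left 5 without a call, where 20.7% of all genes tested were called higher and 18.7% lower. Added to IL-13, it raised none of the 10 and lowered Psat1 and Shmt1, with 12.1% of all genes called higher and 13.5% lower. The median over the 10 genes was 0.09 beside IL-4 and -0.01 beside IL-13, and over all genes tested 0.04 and 0.01. No gene of the 10 changed by a log2 of 1 or more in either comparison, where 4.34% of all genes were called higher and 7.47% lower at that size beside IL-4, and 3.06% and 4.19% beside IL-13, so that this count says nothing particular to the 10. With upper-quartile scaling the median of all genes beside IL-4 shifted by -0.09, and the share of calls that were higher went from 52.6% to 39%. Under that scaling Atf4, Chac1 and Trib3 stayed called higher. Without IL-4/IL-6 replicate 2, the library that stood apart, the genes called beside IL-4 were Atf4 (0.26, adjusted p = 0.00196) and Chac1 (0.67, adjusted p = 0.0075), both higher, and Psat1 (-0.54, adjusted p = 1.22e-06) and Mthfd2 (-0.24, adjusted p = 0.0333), both lower, with Psph and Trib3 no longer called. Leaving out IL-4 replicate 2 took the count beside IL-4 from 5 to 3, with Psph and Chac1 lost. Without IL-13 replicate 1, Psat1 and Shmt1 were still the genes called beside IL-13.

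**Figure D3:**
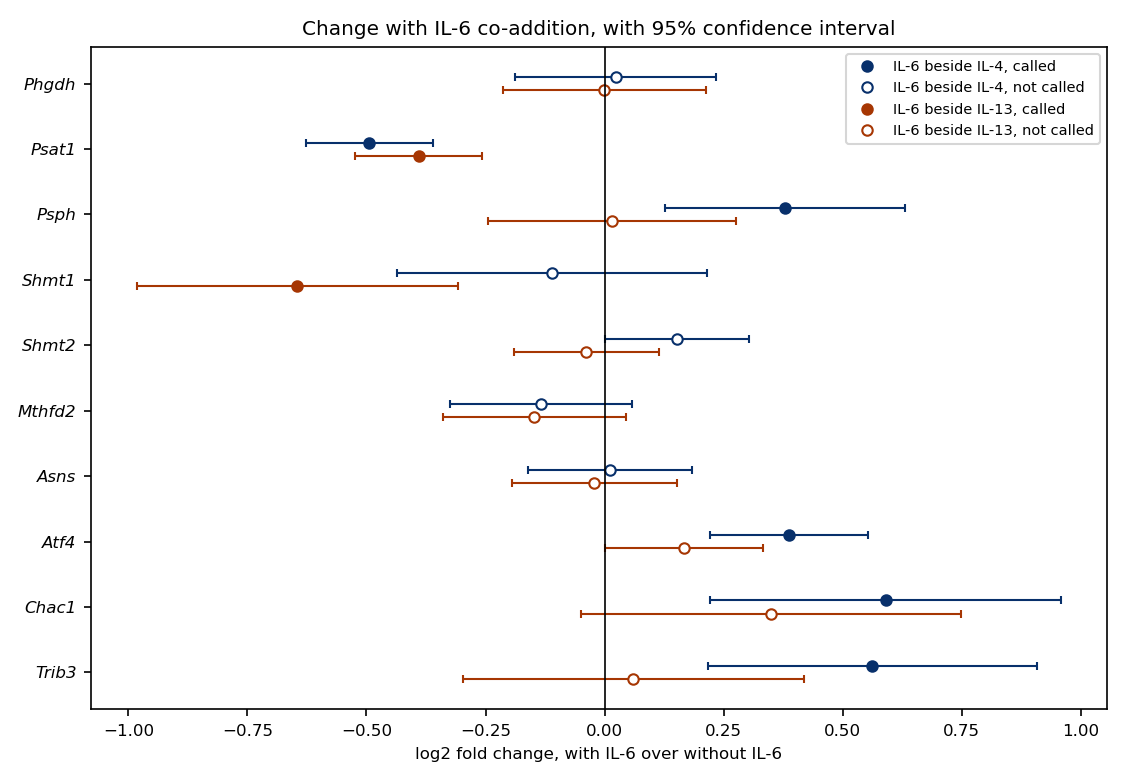
Log2 fold change of each gene with IL-6 over without it, beside IL-4 and beside IL-13 (points), with 95% confidence intervals, filled where called at an adjusted p under 0.05. The filled points are those of Psat1 (lower in both comparisons), Shmt1 (lower beside IL-13), and Atf4, Psph, Chac1 and Trib3 (higher beside IL-4).

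Whether IL-6 acted differently beside IL-4 and IL-13 was tested as a difference of both effects. By edgeR none of the 10 genes was called (3.22% of all genes called with a higher effect beside IL-4, 4.42% with a lower one). The lowest adjusted p of the 10 was that of Shmt1 (difference 0.54 on the log2 scale, SE 0.221, adjusted p = 0.191). Trib3 (0.50, adjusted p = 0.272) and Psph (0.36, adjusted p = 0.277) came next. DESeq2 called none, and limma voom with sample weights called Shmt1 (0.64, adjusted p = 0.0262). The effects on Psat1 differed by -0.10 (-0.29 to 0.09, adjusted p = 0.636). A gene called beside 1 cytokine only was therefore not shown to respond differently beside the other, and a missed threshold does not show equal responses.

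The order of the group means differed between the genes. For Phgdh, Psph, Shmt2, Asns, Atf4, Chac1 and Trib3 the IL-4/IL-6 group had the highest mean CPM, and for Psat1, Shmt1 and Mthfd2 the IL-4 group. For Phgdh and Asns the libraries of the IL-4/IL-6 and IL-4 groups overlapped, and the rank rests on IL-4/IL-6 replicate 2, without which the log2 fold change for IL-6 was -0.14 for Phgdh and -0.10 for Asns (edgeR adjusted p = 0.188 and 0.31). In the deposited FPKM the mean of the IL-4 group was the higher one for both, at 69.6 against 65.7 for Phgdh and 44.3 against 41.5 for Asns. For Mthfd2 and Shmt1 the IL-4 libraries also overlapped those of IL-4/IL-6, with no call for IL-6 beside IL-4 (edgeR adjusted p = 0.264 and 0.616). The IL-4 and IL-13 libraries overlapped for Shmt1 as well. Control was lowest for all 10, though for Shmt1 its libraries overlapped those of IL-13/IL-6. Psat1 had the order IL-4, IL-13, IL-4/IL-6, IL-13/IL-6, control, with neighbours overlapping only between IL-13 and IL-4/IL-6. IL-4 and IL-13 were given at different doses and their values stand side by side without a test.

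Levels between genes can be set side by side only per length. In control BMDMs Atf4 stood at 80.3 ± 3.50 FPKM, Phgdh at 17.2 ± 2.14 and Shmt2 at 16.8 ± 0.867 FPKM, whereas Chac1 stood at 0.255 ± 0.0232 FPKM (SD, n = 3). With IL-4, Phgdh was at 69.6 ± 2.33 FPKM, Shmt2 at 52.4 ± 3.59, Psat1 at 46.7 ± 1.5, Asns at 44.3 ± 1.62 and Mthfd2 at 34.6 ± 0.618 FPKM. Trib3 (7.38 ± 0.773 FPKM), Psph (5.92 ± 0.118), Chac1 (3.19 ± 0.310) and Shmt1 (2.78 ± 0.520) were lower by far. The last enzyme of serine synthesis was thus measured at a lower transcript level than the first 2 in every group, Phgdh over Psph being 8.73 ± 1.92 in control and 11.8 ± 0.430 with IL-4 in FPKM.

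**Figure D4:**
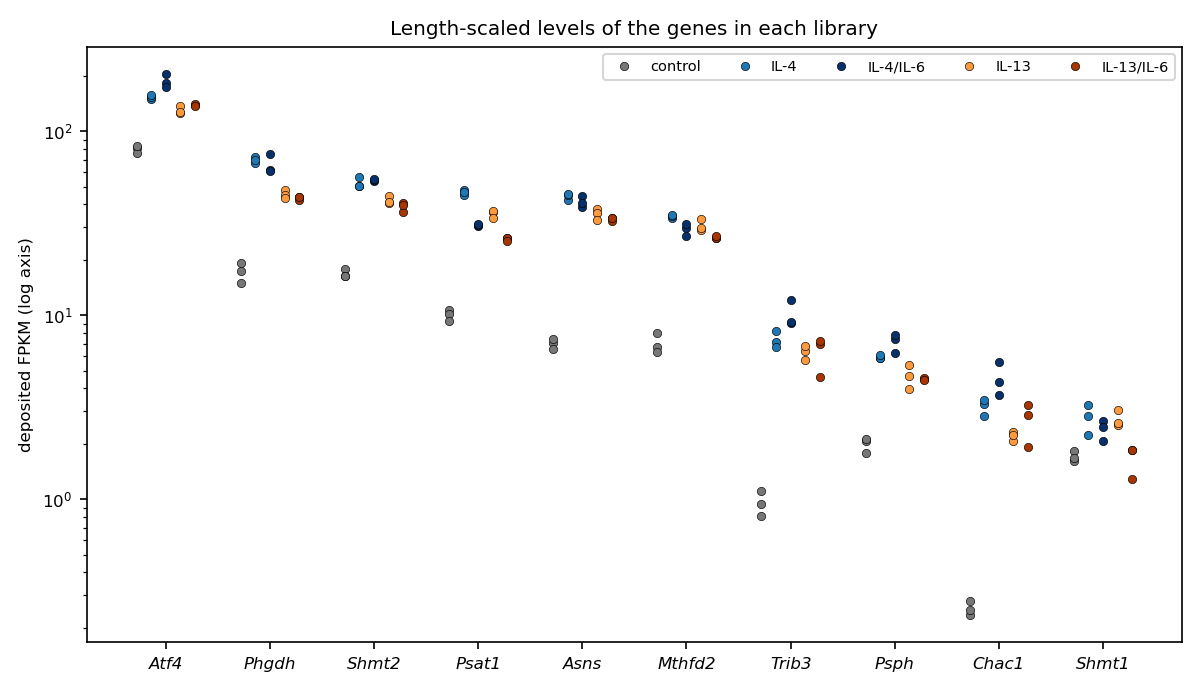
Deposited FPKM of each gene in each library (points, log axis), coloured by group and ordered by the mean in the IL-4 group. Atf4 is highest in all groups, and Trib3 and Chac1 start from under about 1 FPKM in control, where Trib3 has a mean of 0.952 and Chac1 of 0.255.

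Over the 15 libraries, the log2 levels of Mthfd2 and Asns ran together most closely among the 10 genes (Pearson r = 0.992), followed by Phgdh and Shmt2 (r = 0.988). Shmt1 ran apart, its lowest r being with Atf4 (0.525). The points share groups and libraries, so these values restate the group pattern. Of all genes tested, those most like Mthfd2 included Cars (r = 0.997), the cysteinyl-tRNA synthetase, those most like Asns were Impdh2 (0.997), Myc (0.996) and Nop58 (0.995), that most like Phgdh was Mpp6 (0.995), and that most like Shmt2 was Fkbp4 (0.995). For Trib3 it was Lars (0.989), for Chac1 Nop2 (0.991), for Atf4 Cacybp (0.994), for Psat1 Ssrp1 (0.994), for Psph Fbl (0.990), and for Shmt1 Gna11 (0.872).

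Other genes listed as ATF4 targets moved in both directions. Of 25, 23 were tested (Fgf21 and Stc2 were not), and 14 were higher and 8 lower with IL-4 (32.1% and 35.9% of all genes), with a median log2 fold change of 0.83. With IL-13, 14 were higher and 7 lower (29% and 31.1% of all genes, median 0.37). The counts lower are near the share of all genes. The amino acid transporter Slc7a5, named after its values were seen, stood at 4.6 ± 0.634 CPM in control, 45.3 ± 2.34 with IL-4 and 36.8 ± 1.09 with IL-13. The cystine transporter Slc7a11 went the other way, from 22.8 ± 2.14 CPM in control to 6.90 ± 0.416 with IL-4 (log2 fold change -1.72, SE 0.197, adjusted p = 7.01e-07) and 5.56 ± 2.22 with IL-13 (-2.04, SE 0.201, adjusted p = 1.55e-07). The stress cytokine Gdf15 was lower too (-1.89 with IL-4, -1.71 with IL-13). With IL-6 beside IL-4, 11 of the 23 were higher and 4 lower, where 20.7% and 18.7% of all genes tested were, and beside IL-13, 6 were higher and 2 lower, where 12.1% and 13.5% were. The counts lower are near or under the share of all genes. Slc7a11 fell again, to 1.38 ± 0.239 CPM with IL-4/IL-6 (-2.31, adjusted p = 1.37e-06) and 1.28 ± 0.351 with IL-13/IL-6 (-2.11, adjusted p = 1.03e-05). The neutral amino acid transporter Slc1a4 rose from 6.19 ± 0.252 to 20.6 ± 0.612 CPM beside IL-4 (1.73, adjusted p = 1.14e-08) and from 5.42 ± 0.428 to 9.93 ± 1.17 beside IL-13 (0.87, adjusted p = 0.00012). Gdf15 (1.04 and 1.12), Atf5, a transcription factor related to ATF4 (0.98 and 0.72), and the alanine transaminase Gpt2 (0.56 and 0.34) were higher with IL-6 in both settings. Pck2, the mitochondrial PEP carboxykinase, was lower (-0.80 and -0.53). The test of the difference called 4 of the 23, Slc1a4 (0.86), Slc7a5 (0.44), Ppp1r15a (0.71) and, in the other direction, Atf3 (-0.54), named after their values were seen, where 3.22% of all genes were called higher and 4.42% lower.

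**Figure D5:**
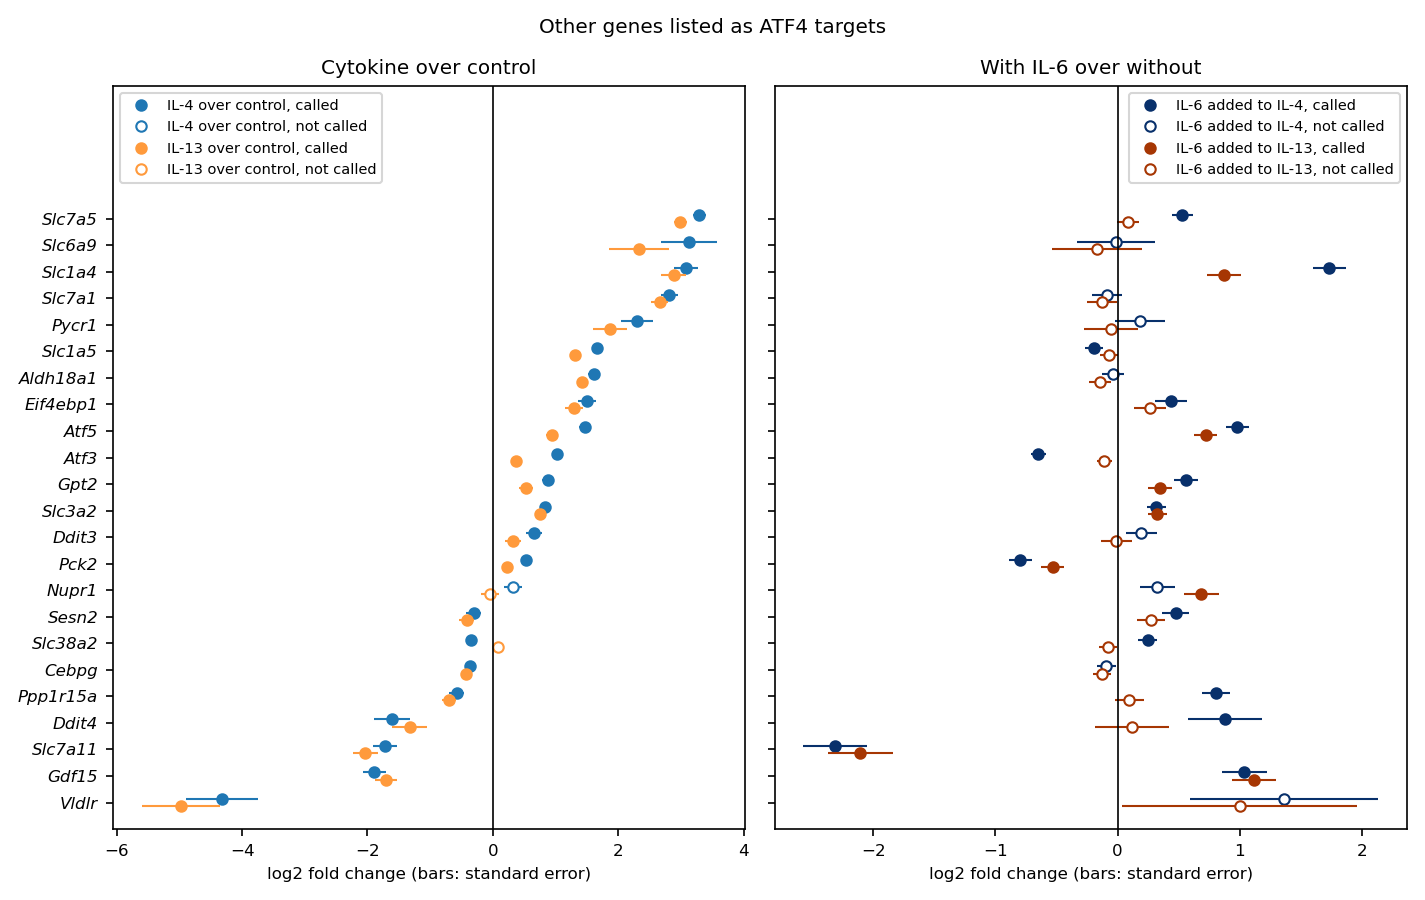
Log2 fold changes of the 23 tested genes from the list of other ATF4 targets, on the left for IL-4 and IL-13 over control and on the right for IL-6 over no IL-6 (points, bars 1 standard error, filled where called). On the left 14 genes are called higher with IL-4 and 8 lower, and on the right Slc7a11 lies lowest and Slc1a4 highest beside IL-4.

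All 16 cytosolic aminoacyl-tRNA synthetases, which load amino acids onto tRNA, were higher with IL-4 and with IL-13 (medians 1.30 and 1.10 on the log2 scale). Of all genes tested, 32.1% were called higher with IL-4 and 29% with IL-13. IL-6 raised 8 of the 16 beside IL-4 (20.7% of all genes) and 2 beside IL-13 (12.1% of all genes, a like share), Rars (0.37 and 0.43) and Wars (0.21 and 0.18). It lowered none, where 18.7% of all genes were called lower beside IL-4 and 13.5% beside IL-13. Of 13 genes for eIF2 kinases, subunits of eIF2 and its exchange factor eIF2B, and the eIF2 phosphatase subunit Ppp1r15b, 8 were higher and 3 lower with either cytokine (32.1% and 35.9% of all genes with IL-4, 29% and 31.1% with IL-13), the counts lower being under the share of all genes. The 3 lower with IL-4, named after their values were seen, were the kinase genes Eif2ak1 (-0.40), Eif2ak3 (-0.58) and Eif2ak4 (-0.53), which act upstream of ATF4 translation, and the kinase gene Eif2ak2 had no call with IL-4 (0.03) but was higher with IL-13 (0.39, adjusted p = 0.0125). IL-6 raised 7 of the 13 beside IL-4 (20.7% of all genes) and, near the 12.1% of all genes, 2 beside IL-13, Eif2b2 (0.52 and 0.37) and Eif2s2 (0.48 and 0.24).

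Among 17 other folate one-carbon enzymes and carriers, 10 were higher and 3 lower with IL-4 (32.1% and 35.9% of all genes), and 11 were higher and 4 lower with IL-13 (29% and 31.1%), the counts lower being under the share of all genes. Tyms, which makes thymidylate, went from 12.9 ± 2.05 to 28.4 ± 2.07 CPM with IL-4 and back to 11.6 ± 0.170 with IL-4/IL-6 (-1.29, adjusted p = 1.47e-07, and -1.20 beside IL-13). In all, IL-6 raised 6 and lowered 3 of the 17 beside IL-4 (20.7% and 18.7% of all genes), and raised 1 and lowered 4 beside IL-13 (12.1% and 13.5% of all genes), so that the count lowered beside IL-4 is near the share of all genes and the count raised beside IL-13 under it. The 10 cell division genes were all lower with IL-6 in both settings (medians -1.52 and -1.46), where 18.7% and 13.5% of all genes were. The part of these 10 genes in the fall of Tyms was not tested.

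All 6 de novo purine synthesis enzymes, of which Gart and Atic use folate-bound one-carbon units, were higher with IL-4 (median 1.32) and with IL-13 (median 1.13). Of all genes tested, 32.1% were called higher with IL-4 and 29% with IL-13. IL-6 raised 1 and lowered 1 of them beside IL-4, near the share of all genes (20.7% and 18.7%), and lowered 3 beside IL-13 (13.5% of all genes), Pfas being lower in both (-0.30 and -0.37). The 4 genes of glycine cleavage showed no common direction, with 1 higher and 2 lower with IL-4 and 1 each with IL-13. Of 9 enzymes that use serine, 5 were tested, of which 1 was higher and 2 lower with IL-4, and 1 higher and 3 lower with IL-13. These small counts are to be read beside the 32.1% higher and 35.9% lower of all genes with IL-4 and the 29% and 31.1% with IL-13, and show nothing particular to either list. The serine palmitoyltransferase subunits Sptlc2 (0.43 and 0.37) and Sptlc1 (0.37 and 0.23), which start sphingolipid synthesis from serine, were higher with IL-6 in both settings. Among 6 partners of Chac1 in the glutathione cycle, 2 were higher and 2 lower with IL-4, near the 32.1% and 35.9% of all genes. With IL-13, 1 was higher and 2 lower, where 29% and 31.1% of all genes were. Gclc (-0.33 and -0.55) and Gclm (-0.40 and -0.29), the subunits of the enzyme that starts glutathione synthesis, were lower with IL-6 in both settings.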

How the data were processed

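RNA of BMDMs was sequenced and analysed by a service company for the authors, who deposited whole-number read counts per Ensembl gene for 15 libraries and FPKM per library. The deposited FPKM values are counts scaled by gene length and library total. The submitters' processing notes name CASAVA, Bowtie2 2.2.3, HISAT2 2.1.0, TopHat2, DESeq2 and GRCm38, with no roles. The counting tool and strand setting are not given in the sources used here. Gene models were from GENCODE M21 (GRCm38) and promoters from RefSeq (GRCm38.p6).

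Counts of all 5 groups were fitted together with edgeR 4.0.16 in R 4.3.3 (TMM, minimum count of 10, quasi-likelihood test). P-values were adjusted by Benjamini-Hochberg over the 13938 genes tested in each of 7 comparisons, and the threshold was 0.05. Normalised CPM used TMM library sizes, and likeness between genes was taken on log2 CPM (prior count 2).

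The 10 genes and the gene lists were chosen with earlier results of these data known. Of each other list, up to 4 genes (6 for ATF4 targets) are named that were called with IL-6 in both settings, in the same direction and without overlap of libraries, those with the larger changes first. Exceptions are marked in the text, and some items that the rule names are not reported here. Alternatives were upper-quartile scaling, DESeq2 1.42.0, limma 3.58.1 voom with sample weights, no filter, CPM above 1 in 3 libraries, a replicate block, only the groups compared, TMM-scaled FPKM, a log2 fold change of at least 1, and leaving out each library. No libraries were counted as duplicates, since the chi-square per gene between replicates was at least 2.60. Depth was 17001352 to 18918686 counts per library. Intervals cover the modelled spread between libraries.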

Additional observations from a re-analysis of the deposited data

How the results depend on the processing

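The counts of the 10 genes called over control (10, 10, 10 and 9) were the same in all 22 alternative fits, and Psat1 in both IL-6 comparisons, Atf4 beside IL-4 and Shmt1 beside IL-13 stayed called in all of them. Requiring a log2 fold change of at least 1 left 1646 genes for IL-6 beside IL-4, 1010 for IL-6 beside IL-13, 3641 for IL-4, 2835 for IL-13, 4598 for IL-4/IL-6 and 3405 for IL-13/IL-6 over control, and 262 for the difference, with 0 of the 10 genes in either IL-6 comparison. Limma voom with sample weights called 5352 genes for IL-6 beside IL-13 in place of 3563, and 2722 genes and 1 of the 10 for the difference in place of 1065 and 0. Leaving out 1 library gave 3 to 5 of the 10 genes called for IL-6 beside IL-4. The cause of these shifts was not tested. Upper-quartile scaling moved the share of higher calls for the difference from 42.2% to 31.7%.

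Every change of sign was in a value without a call. For IL-6 beside IL-4, Phgdh was at -0.066 with upper-quartile scaling, -0.0067 with no filter, -0.019 with only the groups compared, -0.091 with voom and -0.136 to 0.082 leaving out 1 library, and Asns at -0.078, -0.018, -0.031, -0.089 and -0.099 to 0.040. Beside IL-13, Phgdh was at 0.014 with no filter, 0.0015 with the replicate block, 0.050 with voom and -0.041 to 0.037 leaving out 1 library. Psph was at -0.024 with upper-quartile scaling and -0.103 to 0.133 leaving out 1 library. With voom, Shmt2 was at 0.0096, Asns at 0.058 and Trib3 at -0.026, and leaving out 1 library gave -0.084 to 0.0093, -0.086 to 0.031 and -0.067 to 0.225. Shmt1 with IL-13/IL-6 over control ran from -0.013 to 0.238. For the difference, Phgdh was at -0.027 with upper-quartile scaling, -0.021 with no filter, -0.141 with voom and -0.124 to 0.089 leaving out 1 library, Mthfd2 at -0.035, -0.029, -0.052 and -0.078 to 0.084, and Asns at -0.017, -0.011, -0.146 and -0.066 to 0.083.

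Replicate numbers share no stated origin. Deviations of same-numbered libraries of different groups had a median correlation of -0.008 over 30 pairs, against 0.003 for 60 pairs of other numbers. With the number as a replicate block the genes called were 5228, 3368, 9305, 8135, 9979, 8762 and 932 in place of 5488, 3563, 9476, 8370, 10155, 8919 and 1065 (IL-6 beside IL-4, IL-6 beside IL-13, IL-4, IL-13, IL-4/IL-6 and IL-13/IL-6 over control, the difference), and the same genes of the 10 were called. Rescaling FPKM by TMM moved 8 of the 50 group means of the 10 genes by more than their SD. Chac1 in control, at 7 to 8 counts, is where depth limits precision most.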
